A study of Mus musculus with 3 samples.

Results

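Small nucleolar RNAs (snoRNAs), small Cajal body RNAs (scaRNAs) and the Snhg genes, noncoding genes named for hosting snoRNAs, were examined in lymphatic endothelial cells of the large intestine of C57BL/6 mice. Every gene was taken whose symbol begins with Snora, Snord, Snhg or Scarna followed by a digit. This gave 127 of the 24091 genes listed: 34 H/ACA snoRNA genes (Snora), 68 C/D snoRNA genes (Snord), 9 scaRNA genes (Scarna) and 16 Snhg host genes. The genes were chosen because several snoRNAs were among the most variable between libraries, so their variation is described and supports nothing. The study holds 3 libraries of 1 group, called replicates 1, 2 and 3. Cells were sorted on CD31, podoplanin and LYVE1, total RNA was extracted with a Direct-Zol kit, and libraries followed an Illumina protocol that the labels do not detail. Genotype, treatment and age are not given in the labels. Whether each library is a different animal is not stated, and the spread over libraries may thus be technical. With 1 group there was no comparison of conditions and no test.

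C/D snoRNAs guide methylation of the ribose in ribosomal RNA, and H/ACA snoRNAs guide the change of uridine to pseudouridine. Each works in a particle with 4 core proteins, and the scaRNAs do the same for the small nuclear RNAs of the spliceosome in Cajal bodies. Most mammalian snoRNAs are cut from introns of a host gene, often a gene for a ribosomal protein or translation factor, or a noncoding gene whose spliced RNA is short-lived. The mature snoRNA carries no poly(A) tail, and the labels do not say how the libraries were enriched.

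The sequences of the leading genes of each class are shown because the boxes that define the classes can be read in them. They are GENCODE M21 transcripts of GRCm38, written 5′ to 3′ with T for U. For the H/ACA snoRNAs and Scarna3a, capitals mark a match to the H box ANANNA between 40% and 65% of the length and ACA within the last 8 bases. For the C/D snoRNAs, capitals mark TGATGA (the C box) within the first 20 bases and CTGA (the D box) within the last 15. In Snora65, no ANANNA was found in the searched window.
Snora65 (chr2:32963291-32963420, plus strand): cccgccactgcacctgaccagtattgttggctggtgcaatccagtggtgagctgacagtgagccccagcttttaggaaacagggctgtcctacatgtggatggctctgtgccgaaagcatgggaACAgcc
Snora70 (chrX:74272484-74272620, plus strand): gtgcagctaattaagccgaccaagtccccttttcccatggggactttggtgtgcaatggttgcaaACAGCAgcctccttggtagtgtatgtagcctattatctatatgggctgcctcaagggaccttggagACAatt
Snora28 (chr12:111540941-111541067, plus strand): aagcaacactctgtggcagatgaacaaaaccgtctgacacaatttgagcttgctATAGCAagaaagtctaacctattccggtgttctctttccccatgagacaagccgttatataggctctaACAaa
Snora31 (chr14:75847905-75848034, plus strand): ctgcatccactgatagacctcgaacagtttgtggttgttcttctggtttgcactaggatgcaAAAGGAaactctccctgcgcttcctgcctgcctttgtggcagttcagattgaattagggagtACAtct
Snord104 (chr11:106500993-106501062, plus strand): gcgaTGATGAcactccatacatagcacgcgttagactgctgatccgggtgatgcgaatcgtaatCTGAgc
Snord52 (chr17:34950952-34951017, minus strand): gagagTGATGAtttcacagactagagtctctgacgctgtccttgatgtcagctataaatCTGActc
Snord47 (chr1:161038082-161038158, plus strand): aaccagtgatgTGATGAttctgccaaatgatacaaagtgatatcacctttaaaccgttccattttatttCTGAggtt
Scarna3a (chr1:159340283-159340422, plus strand): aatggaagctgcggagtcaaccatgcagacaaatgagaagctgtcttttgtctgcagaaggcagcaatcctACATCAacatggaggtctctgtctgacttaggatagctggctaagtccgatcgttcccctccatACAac

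The classes are defined by these boxes, so a difference in matches between them was built in and supports nothing. On the gene's own strand, 29 of 34 H/ACA snoRNA genes held both ANANNA and ACA in those windows, and 32 held ACA. Of the 67 C/D snoRNA genes with a sequence, 2 held both, and of 2202 RefSeq miRNA hairpins 88 did. ANANNA, with or without ACA, was in 31 of the H/ACA snoRNA genes, 29 of the 67 C/D snoRNA genes and 532 of the hairpins. TGATGA and CTGA were both found in 38 of the 67 C/D snoRNA genes and in 0 of 34 H/ACA snoRNA genes, and CTGA, with or without TGATGA, in 60 of the 67. The scaRNA genes were mixed: 4 of 9 had TGATGA and CTGA, and 3 had ANANNA and ACA. Among the C/D snoRNA genes detected in every library (defined below), 20 of 30 held TGATGA and CTGA, against 18 of 37 of the others. A match is a description of the letters in a window and not of a working box.

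The values are TPM, a unit in which reads are divided by gene length and each library is scaled to the same total. A gene was called detected when each of the 3 libraries gave it a TPM of at least 1. Detected were 21 of 34 H/ACA snoRNA genes (61.8%), 30 of 68 C/D snoRNA genes (44.1%), 2 of 9 scaRNA genes (22.2%) and 15 of 16 Snhg host genes (93.8%). Together these are 68 of 127 genes (53.5%), against 53.4% of all genes in the table, so the share over all 4 classes is near the background. Among the annotated miRNA genes under 300 bases, another class of short RNAs, 4.14% were detected. Listed at 0 in every library were 4 H/ACA, 25 C/D and 2 scaRNA genes and 0 Snhg genes, together 31 of 127 (24.4%), against 20.9% of all genes and 78.3% of miRNA genes.

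The classes also differed in level. The median gene had a mean TPM of 15.1 among H/ACA snoRNA genes, 1.87 among C/D snoRNA genes, 1.65 among scaRNA genes and 28.9 among Snhg host genes, against 2.48 over all genes. The median annotated length was 119.5 bases in the H/ACA and 68 bases in the C/D snoRNA genes. The TPM of 1 read changes with length, as given below, so class and length cannot be told apart in these levels. Summed TPM of the H/ACA snoRNA genes were 1229, 1060.3 and 917 in replicates 1, 2 and 3, so replicate 1 was highest and replicate 3 lowest. The C/D snoRNA genes summed to 447, 528 and 505 TPM, lowest in replicate 1. The scaRNA genes summed to 21.8, 17.2 and 36.2 TPM, and the Snhg host genes to 626, 571 and 541 TPM. All 127 genes together made up 0.217 ± 0.0162% of TPM (SD, n = 3).

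**Figure D1:**
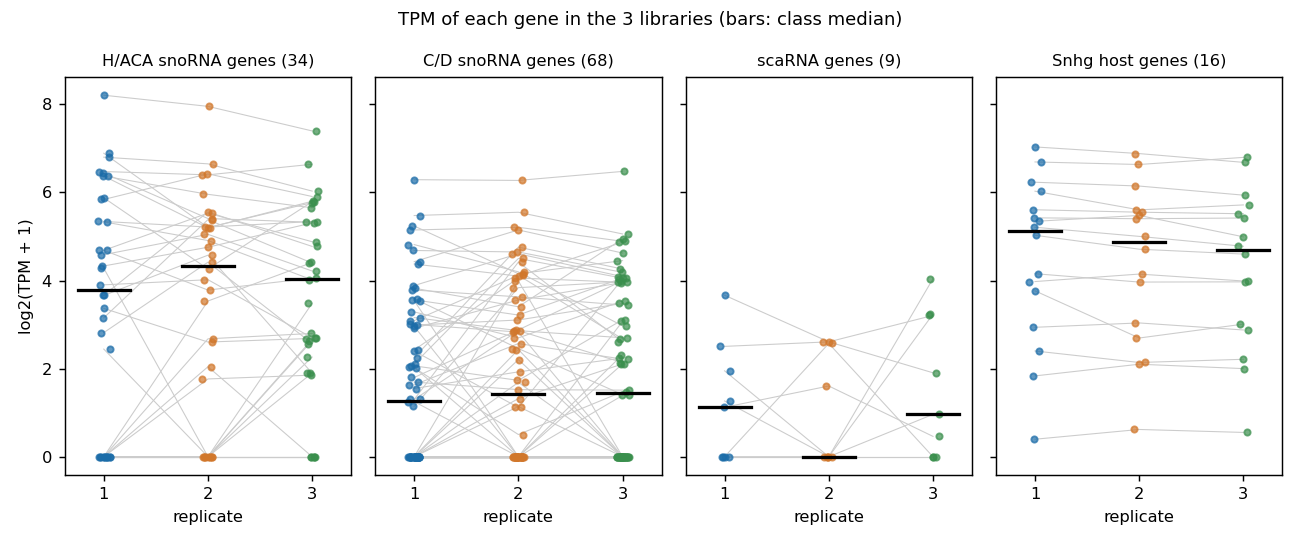
Each point is 1 gene in 1 library, as log2(TPM + 1), grouped by class and replicate, grey lines join the values of 1 gene, and black bars mark class medians. The lines of the 16 Snhg host genes run nearly flat, while those of the 34 H/ACA, 68 C/D and 9 scaRNA genes cross, many of them starting or ending at 0.

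Markers show that the libraries hold RNA of several cell types. All 7 lymphatic markers were detected, including Lyve1 at 545, 611 and 314 TPM and the transcription factor Prox1 at 3.27, 4.82 and 2.63 TPM, and the 7 summed to 1571, 1633 and 911 TPM. The 7 colon epithelium markers summed to 15036, 18728 and 19473 TPM. The 5 macrophage markers summed to 221, 154 and 502 TPM, the 5 fibroblast markers to 149, 98.0 and 372 TPM, and the 5 blood endothelium markers to 650.2, 582 and 549 TPM. Within the blood endothelium list the markers went in opposite directions. Plvap (88.2, 53.4 and 178 TPM) and Flt1 were highest in replicate 3, and Aqp1, Gpihbp1 (193, 176 and 88.9 TPM) and Emcn were lowest there. No marker in these lists was at 0 in any library. Lymphatic markers were lowest, and fibroblast and macrophage markers highest, in replicate 3. The snoRNA and host gene values below therefore describe the mixture, fewer cells of a type and less RNA per cell cannot be told apart in it, and the part of the mixture in the differences between libraries was not tested.

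Behind most snoRNA values stand few reads. TPM keep no depth, but the values of short genes fell on whole multiples of a step that depends on the annotated length, and the step was taken as the TPM of 1 read. In replicates 1, 2 and 3, 1 read was worth 2.13, 2.28 and 2.47 TPM at 45 bases, 1.06, 1.16 and 1.27 TPM at 84 bases, and 2.34, 2.55 and 2.75 TPM at 118 bases. The step thus does not fall steadily with length, and TPM of snoRNA genes of different lengths are not on 1 scale per molecule. From 42 to 140 bases, 1 read alone puts a gene above a TPM of 1. At lengths with at least 2 values, 85%, 89.1% and 90% of the values lay within 0.1 of a whole number of steps. The steps were fitted to these same values, so these shares describe the fit and are no independent check of it. The read numbers below are estimates made this way and not counts that the authors deposited.

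**Figure D2:**
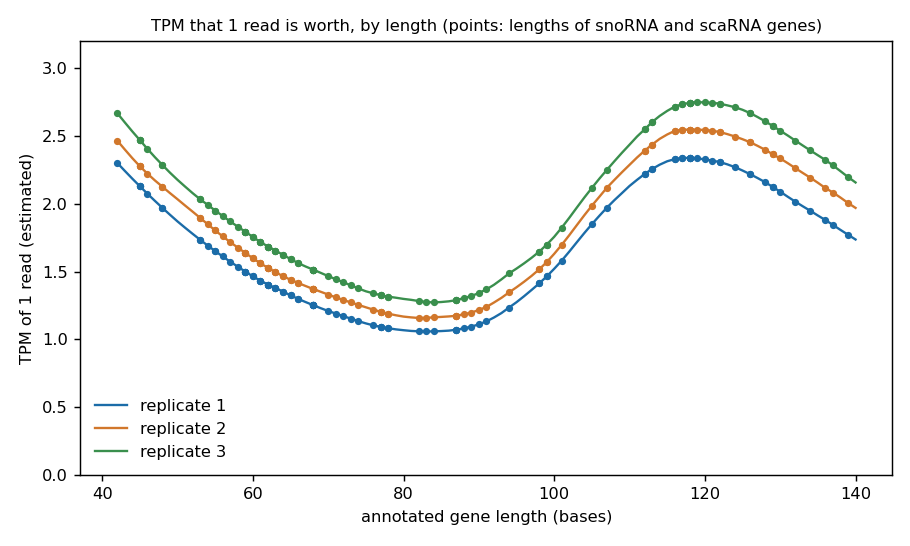
Estimated TPM of 1 read against annotated gene length in bases, with a line per replicate and points at the lengths of snoRNA and scaRNA genes. The 3 lines have the same shape, with a low near 84 bases and a high near 118 bases.

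Of the 80 snoRNA and scaRNA genes above 0, 66 had whole read numbers in every library. These 66 genes summed to 805, 711 and 605 estimated reads, and 44 of them had fewer than 30 reads over the 3 libraries together. At least 5 reads in every library were found for 24 genes, 13 of them H/ACA and 11 C/D, and at least 10 reads for 14 genes. The other 14 genes had no whole estimate. Intervals of 95% for these read numbers are exact Poisson intervals, and they cover counting error only.

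Among the H/ACA snoRNAs, Snora65 was the highest. This guide of ribosomal RNA lies in Rpl12, which encodes a protein of the large ribosomal subunit. Snora65 had 295, 247 and 168 TPM in replicates 1, 2 and 3, from 126, 97 and 61 estimated reads. Converted to TPM, the counting interval begins at 246 TPM in replicate 1 and ends at 215 TPM in replicate 3. The spread between libraries beyond counting was not tested, since it was used to choose these genes.

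Snora70, in the ribosomal protein gene Rpl10, had 111, 99.4 and 64.4 TPM from 52, 42 and 25 reads. Snora28, in the gene of the translation initiation factor Eif5, had 88.0, 83.4 and 98.8 TPM, a mean of 90.1 ± 7.88 TPM (SD, n = 3). Of the 8 H/ACA snoRNA genes with the highest mean, Snora28 was the steadiest between libraries. Its value in replicate 1 is 38.1 times the TPM of 1 read, just outside the tolerance for a whole number, so no read numbers are given.

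Snora31, in the gene of the translationally controlled tumor protein Tpt1, had 118, 35.9 and 53.5 TPM from 53, 15 and 21 reads, so replicate 1 stood above the other libraries. Snora81, in the RNA helicase gene Eif4a2, had 56.3, 84.8 and 59.1 TPM, highest in replicate 2. Snora64, in Rps2, had 81.9, 61.1 and 49.3 TPM from 35, 24 and 18 reads. In these genes the library with the highest value was thus not always the same.

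Snora44, in the noncoding gene Snhg12, had 81.9, 35.7 and 54.7 TPM from 35, 14 and 20 reads. Snora41, in the elongation factor gene Eef1b2, had 85.8, 41.5 and 39.0 TPM from 38, 17 and 15 reads. Both were highest in replicate 1.

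Among H/ACA snoRNA genes averaging at least 10 TPM, the SD of log2(TPM + 1) was largest in Snora30, Snora75, Snora5c, Snora17 and Snora52. Snora30, in the chromatin remodeler gene Srcap, had 0, 10.6 and 20.3 TPM from 0, 5 and 9 reads. Snora75, in the nucleolin gene Ncl, had 11.7, 22.9 and 2.72 TPM from 5, 9 and 1 reads. Both rest on fewer than 10 reads in any library. Snora5c, in Tbrg4, had 7.90, 40.8 and 20.1 TPM from 5, 24 and 11 reads. Snora17, in Snhg7, had 6.05, 20.4 and 4.93 TPM from 3, 9 and 2 reads. Snora52, in the ribosomal protein gene Rplp2, had 11.7, 46.1 and 26.4 TPM from 6, 21 and 11 reads. Snora75, Snora5c, Snora17 and Snora52 were highest in replicate 2.

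Among the C/D snoRNAs, Snord104 led with 77.3, 76.4 and 88.1 TPM from 67, 60 and 63 reads. Its mean of 80.6 ± 6.55 TPM (SD, n = 3) had the smallest relative spread of the 8 highest C/D snoRNA genes, and the interval for the 60 reads of replicate 2, from 45.8 to 77.2, holds the numbers of the other libraries. No gene of the table was found around Snord104 on its strand.

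Snord52, in the noncoding gene 1110038B12Rik, had 43.5, 45.9 and 32.3 TPM from 29, 28 and 18 reads. Snord47, in Gas5, had 34.5, 36.0 and 28.7 TPM from 26, 25 and 18 reads. Gas5 is a noncoding gene known for holding many snoRNAs in its introns, of which Snord47 is in the table. Both snoRNAs were lowest in replicate 3.

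Snord55 had 20.6, 34.5 and 23.7 TPM from 19, 29 and 18 reads. Snord33, in Rpl13a, had 36.8, 16.8 and 20.9 TPM without a whole read estimate. Snord12, in the noncoding gene Zfas1, had 24.7, 24.1 and 17.2 TPM from 19, 17 and 11 reads. Snord55 was highest in replicate 2, and Snord33 and Snord12 were highest in replicate 1. Snord89, for which no host was found, had 19.8, 16.2 and 28.2 TPM from 16, 12 and 19 reads. Snord68, in Rpl13, had 13.8, 23.4 and 16.0 TPM from 7, 11 and 7 reads. Snord89 was highest in replicate 3 and Snord68 in replicate 2.

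Among C/D snoRNA genes averaging at least 10 TPM, the same SD was largest in Snord2, Snord58b, Snord16a, Snord83b and Snord72. Snord2, which shares the host Eif4a2 with Snora81, had 3.76, 26.1 and 18.2 TPM from 3, 19 and 12 reads. Snord58b, in Rpl17, had 3.30, 21.7 and 15.6 TPM from 2, 12 and 8 reads. Both were lowest in replicate 1, in which Eif4a2, at 226 TPM, was also lowest and Rpl17, at 2301 TPM, was highest. Snord16a, in Rpl4, had 27.2, 17.3 and 6.84 TPM from 24, 14 and 5 reads. Snord83b, in Rpl3, had 4.37, 15.6 and 14.6 TPM from 4, 13 and 11 reads. Snord72, in Rpl37, had 13.2, 9.59 and 29.8 TPM from 9, 6 and 17 reads. Snord2, Snord58b and Snord83b were highest in replicate 2, Snord16a in replicate 1 and Snord72 in replicate 3.

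Of the imprinted brain snoRNA clusters, 1 row was listed, Snord116, at 0 in every library. Snord64, which lies in the same imprinted region within Snhg14, had 0, 2.22 and 0 TPM, which is 1 read in replicate 2. Snord118, also called U8 and needed for processing of the ribosomal RNA precursor, was listed at 0 in every library. Numbered copies of 1 family such as Snord1a, Snord1b and Snord1c can share reads, and their values are uncertain for that reason.

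The scaRNA genes were low. Scarna3a, in Rfwd2, had 11.7, 5.10 and 8.24 TPM from 5, 2 and 3 reads. Scarna8, in Haus6, had 4.68, 5.10 and 2.75 TPM from 2, 2 and 1 reads. These were the scaRNA genes detected in every library. Scarna2 had 2.86, 0 and 15.5 TPM from 2, 0 and 9 reads, and Scarna17 had 1.40, 0 and 8.43 TPM from 1, 0 and 5 reads. Both were highest in replicate 3 and at 0 in replicate 2, and no host was found for either. Scarna9 had 2 reads, all in replicate 2. Scarna13, in Snhg10, had 1.18, 2.04 and 0.377 TPM, and Scarna6 had 0, 0 and 0.947 TPM. Scarna10 and Scarna3b were listed at 0 throughout. Scarna10 carries the boxes of both classes in human cells. A listed 0 does not show that a gene was silent, and snoRNAs of general use such as Snord118 were also at 0.

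**Figure D3:**
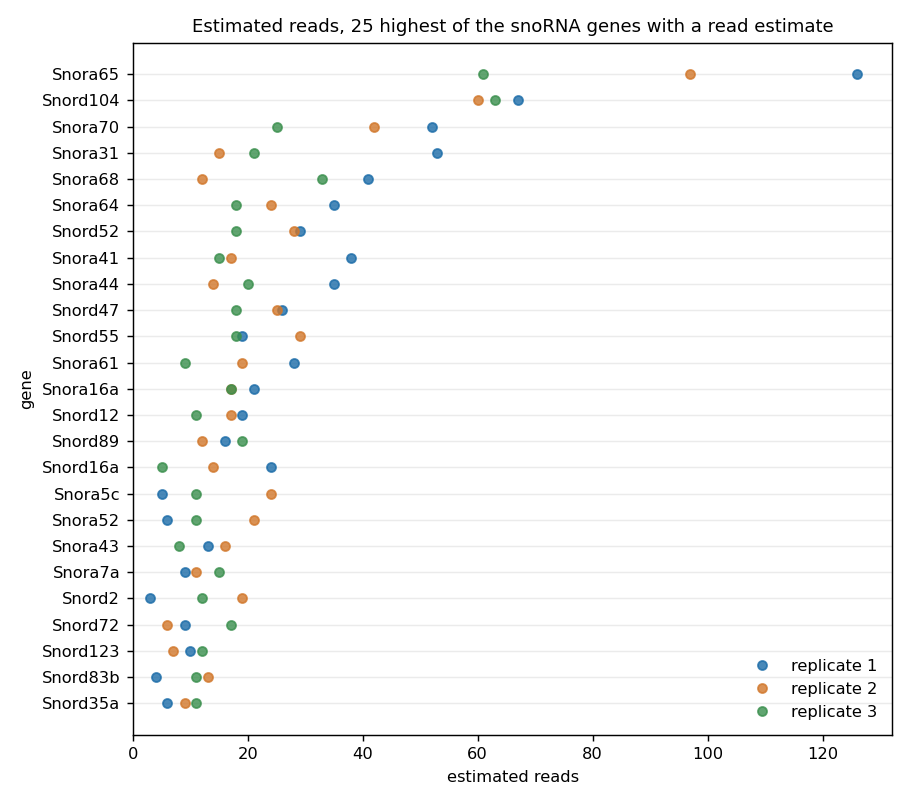
Estimated reads (x axis) of the 25 snoRNA genes with the highest totals among those with a whole read estimate, with a point per replicate. Snora65 spans 61 to 126 reads, Snord104 spans 60 to 67, and every other gene plotted lies below Snord104 in every library.

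The variation between libraries, which was used to choose these genes, was large in the small RNAs and small in the host genes. A gene was called variable when its SD of log2(TPM + 1) lay above the 95th percentile of genes of like mean level, which takes 5% of the 13606 genes averaging at least 1 TPM. By this rule 19 of 30 H/ACA, 17 of 40 C/D, 2 of 6 scaRNA and 0 of 15 Snhg genes were variable, 38 of 91 in all. The rule compares genes of like TPM and not of like read number. The SD decreased with the number of reads. Its median was 1.27 in the 23 genes with under 10 reads in total, of which 20 were at 0 in some library. It was 0.74 in 21 genes with 10 to 29 reads, 0.67 in 11 genes with 30 to 59 reads and 0.41 in 11 genes with 60 or more reads, against 0.13 in the 16 Snhg host genes. No read numbers were estimated for the Snhg host genes.

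Counting error alone leaves wide limits on most of these values. Among the 66 genes with whole read numbers, 34 were called variable. For 12 genes the intervals of at least 2 libraries, converted to TPM, did not overlap, and all 12 were among the 34. Both calls rest on the same TPM values, so their overlap supports nothing. Intervals were not made for genes outside the 66, so there is no background share for the 12. They were Snora65, Snora31, Snora68, Snora52, Snora5c, Snora30, Snord16a, Snord2, Snord4a, Snord23, Snord35b and Scarna2, listed after their values were seen. Snora68 had 57.9, 18.2 and 54.3 TPM from 41, 12 and 33 reads, lowest in replicate 2. In the other 22 variable genes with whole read numbers, the intervals overlapped. This is a description of precision and not a test.

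The library in which a gene was highest varied as well. Of the 91 genes averaging at least 1 TPM, 35 were highest in replicate 1, 30 in replicate 2 and 26 in replicate 3, against 17%, 41.7% and 41.3% of all such genes. Of the 15 Snhg host genes among them, 10 were highest in replicate 1, 4 in replicate 2 and 1 in replicate 3. The share of TPM held by 87 ribosomal protein genes, at 22.2%, 19.1% and 18.4% in the 3 libraries, was also highest in replicate 1. The median-of-ratios size factors, by which values are divided, were -0.14, 0.08 and 0.07 on the log2 scale, so this scaling raised replicate 1 and lowered the other libraries. After it, 14 of the 15 Snhg genes were highest in replicate 1, against 39.0% of all genes.

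The small RNAs were set beside the genes that hold them. A host on the same strand was found for 104 of 111 small RNA genes, in 79 hosts. Of these, 31 small RNA genes lay in 23 ribosomal protein genes, 50 in 41 other protein-coding genes and 23 in 15 noncoding genes. All but 1 of the hosts were detected, against 53.4% of all genes, the exception being Htr2c, which holds Snora35, listed at 0. Detected were 19 of the 31 small RNA genes in ribosomal protein genes and 19 of the 50 in other protein-coding genes. Of those in noncoding genes, 13 of the 23 were detected, and of the 7 with no host found, 2. These counts stand beside the same 53.4% of all genes. By position, Snora74a of these 7 lies within Snhg4 and Snord116 within Snhg14. The strand was missing for Snhg4 and for Snord116, so neither pair could be matched by strand. The median mean TPM was 9.73, 1.70 and 6.57 for the small RNA genes of the 3 kinds of host, against 2239, 32.7 and 41.7 for the hosts.

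The small RNA was nearly always the lower of the pair. In 95 of 104 pairs it was below its host in every library, and in 3 it was above. Small RNA genes at 0 in every library count as below any detected host and enter the median below. A small RNA above 0 was present in 76 of the 104 pairs. The median difference of log2(TPM + 1), small RNA minus host, was -4.71, -4.73 and -4.39 in replicates 1, 2 and 3, a mean of -4.61 ± 0.19 (SD, n = 3). In 22 of the 76 pairs whose small RNA was above 0, the host was at least 100-fold higher in mean TPM. Since TPM per read changes with length in the small RNAs as shown above, these differences are between TPM values and not between numbers of molecules.

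Pairs of like host level differed widely. Snora65 averaged 236 ± 64.3 TPM and its host Rpl12 averaged 2935 ± 411 TPM (SD, n = 3 each). In Rpl13a, Snord33 averaged 24.8 ± 10.5 TPM, Snord35a 10.6 ± 3.98 TPM and Snord34 was at 0, and the host averaged 2474 ± 258 TPM. The means of these snoRNAs thus ranged from 0 to 236 TPM, in hosts whose means were 2935 and 2474 TPM.

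Some pairs lay closer together in level. Snora28 averaged 90.1 ± 7.88 TPM and Eif5 averaged 94.3 ± 13.2 TPM (SD, n = 3 each). Snora44, Snora16a and Snora61 averaged 57.4 ± 23.2, 38.4 ± 1.96 and 27.8 ± 12.1 TPM, and their shared host Snhg12 averaged 46.1 ± 1.49 TPM. Across libraries Snora16a stayed near Snhg12, at 39.5, 36.1 and 39.5 TPM, while Snora61 had 39.3, 29.03 and 15.2 TPM. Snora28, Snora44, Snora16a and Snora61 all overlap an annotated exon of their host. Reads of these snoRNAs and of their hosts cannot be told apart there, and the part of host reads in the close levels was not tested. The other snoRNA of Snhg12, Snord99, was listed at 0. The pairs with the small RNA above its host in every library, named after their values were seen, were Snora34 in Kansl2, Snora43 in Snhg7 and Snora78 in Snhg9. Snora34 and Snora78 overlap no annotated exon of the host, and for Snora43 this is not known. Snora78 had 24.8, 12.8 and 15.6 TPM, and Snhg9 had 12.6, 5.48 and 7.06 TPM. Both genes of this pair were highest in replicate 1.

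In 19 hosts with 2 or more small RNA genes, all of them were detected in 2, Eif4a2 and Snhg7. Snora81 averaged 66.7 and Snord2 averaged 16.0 TPM in Eif4a2, which itself averaged 243 ± 15.2 TPM (SD, n = 3). In Rps12 and Wdr43 every small RNA gene was listed at 0.

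**Figure D4:**
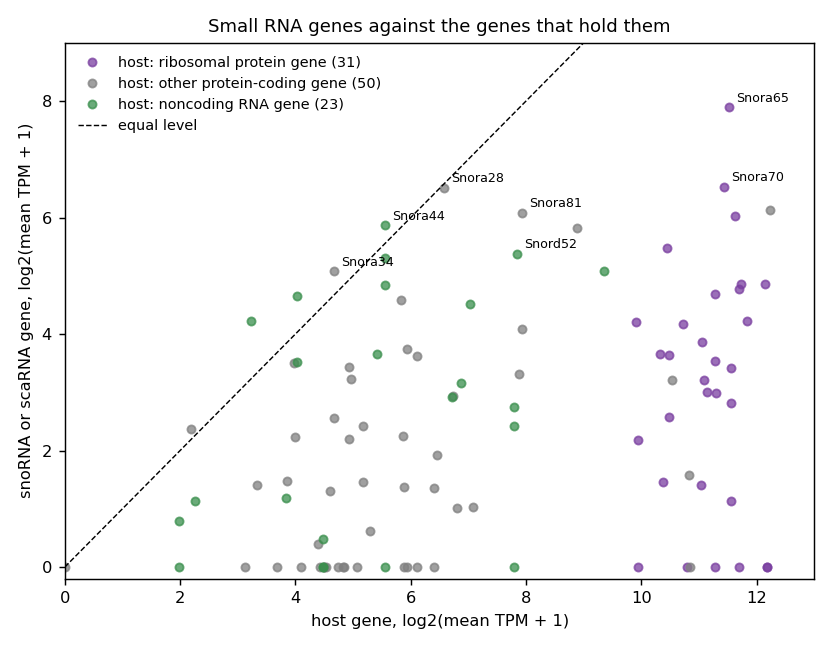
Each point is 1 of 104 small RNA genes, with the mean log2 level of its host on the x axis and its own on the y axis, as log2(mean TPM + 1), coloured by kind of host. Nearly all points lie below the dashed line of equal level, and the ribosomal protein hosts form a column at the right in which the small RNAs range from 0 to Snora65.

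Overlap with host exons bears on what a value counts. Of the small RNA genes with a GENCODE host, 47 overlapped an annotated exon of the host and 54 did not. Detected were 28 of the 47, against 21 of the 54 and 53.4% of all genes. The median difference from the host was -4.67 with an overlap and -4.77 without. Reads of the host and of the small RNA cannot be told apart where they overlap, and a read from an unspliced intron cannot be told apart from one of the mature snoRNA in either set. Whether counting used strand is not given, and 3 of the genes overlap an exon on the other strand.

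Length also went with detection, which was 53.4% over all genes. Of the 20 small RNA genes under 60 bases, 6 were detected, against 13 of 35 from 60 to under 80 bases, 10 of 15 from 80 to under 100, 11 of 16 from 100 to under 120 and 13 of 25 of 120 bases or longer. The C/D snoRNA genes have a median annotated length of 68 bases and the H/ACA snoRNA genes of 119.5 bases, so class and length cannot be told apart in these counts.

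The Snhg host genes had a smaller spread between libraries than the small RNAs. They are longer genes without read estimates, and the part of length and read number in this difference was not tested. Snhg1 had 130.1, 117 and 102 TPM, Snhg6 had 102, 98.4 and 110.2 TPM, and Snhg20 had 74.2, 69.8 and 60.3 TPM. Snhg8 had 64.3, 47.7 and 51.6 TPM, Snhg12 had 47.7, 45.9 and 44.8 TPM, and Snhg18 had 41.9, 41.3 and 41.8 TPM. Snhg18 was the steadiest of the class, with a highest value 1.01 times its lowest, and Snhg9 the least steady, at 2.30 times. Snhg3 had 39.6, 43.6 and 30.9 TPM, Snhg5 had 36.0, 31.1 and 26.4 TPM, and Snhg15 had 31.6, 25.2 and 23.3 TPM. The remaining 7 ranged from Snhg11, at a mean of 0.439 TPM, to Snhg4, at 15.5 TPM. Snhg11 was the only one of the 16 not detected, and Snhg14, the long imprinted RNA of the region that holds Snord64, had 2.57, 3.29 and 3.002 TPM.

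**Figure D5:**
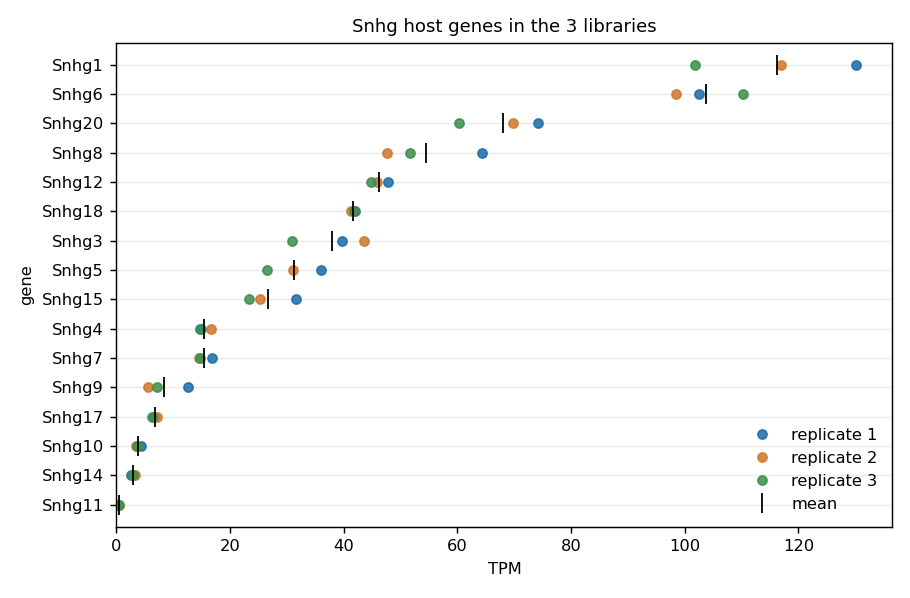
TPM (x axis) of the 16 Snhg host genes, with a point per replicate and a bar at the mean. Snhg1 at 102 to 130.1 TPM and Snhg6 at 98.4 to 110.2 TPM lead, and Snhg11 lies below 1 TPM in every library.

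For Snhg1 and Snhg6, 1 snoRNA each is in the table, and it was lower than its host in every library. Snord22, in Snhg1, had 2.48, 6.36 and 14.96 TPM, without a whole read estimate. Snord87, in Snhg6, had 7.93, 6.27 and 5.50 TPM from 7, 5 and 4 reads. Snord22 was highest in replicate 3, where Snhg1 was lowest. Of the other host RNAs on the lists, Gas5 had 731, 636 and 592 TPM, Zfas1 had 156, 117 and 114 TPM, and Dancr had 12.6, 17.0 and 10.2 TPM. Gas5 was thus above every Snhg gene, and its snoRNA Snord47 was 19.8-fold below it in mean TPM.

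The proteins of the snoRNA particles were all detected, as were 53.4% of all genes. Of the C/D core proteins, the methyltransferase fibrillarin (Fbl) had 160, 148 and 131 TPM, Snu13 a mean of 118 ± 5.05 TPM (SD, n = 3), Nop56 97.7, 87.5 and 66.5 TPM and Nop58 55.6, 64.3 and 53.9 TPM. Of the H/ACA core proteins, the pseudouridine synthase dyskerin (Dkc1) had 16.3, 18.6 and 17.8 TPM, Gar1 31.6, 30.9 and 23.0 TPM, Nhp2 119, 108 and 89.3 TPM and Nop10 148, 163 and 134 TPM. Dyskerin was the lowest of the 8 core proteins. No core protein was called variable, by a rule that takes 5% of the genes averaging at least 1 TPM.

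The factors around the particles were also present, and the share detected over all genes was 53.4%. All 11 assembly factors were detected, from Shq1 at a mean of 3.92 TPM to Pih1d1 at 82.7 TPM. The 3 Cajal body genes were detected: the scaffold coilin (Coil) had 4.56, 6.22 and 5.87 TPM, Wrap53, which binds scaRNAs, had 13.7, 12.1 and 11.9 TPM, and Smn1 had 26.6, 34.3 and 27.3 TPM. All 6 genes of snoRNA maturation and turnover were detected, among them the debranching enzyme Dbr1 at 15.2, 13.7 and 14.5 TPM, which opens the intron lariat, and the deadenylase Parn at 14.1, 15.5 and 15.4 TPM, which trims the ends of H/ACA RNAs. All 7 genes of nonsense-mediated decay, which degrades many spliced Snhg RNAs, were detected, and the kinase Smg1 was the one called variable, at 7.40, 18.7 and 17.6 TPM.

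Other small noncoding RNAs were low apart from 1. Of 10 listed genes, 7 were in the table and 6 were detected. Rpph1, the RNA of ribonuclease P, had 23.6, 11.4 and 19.0 TPM, Rmrp, that of ribonuclease MRP, had 4.71, 8.18 and 9.05 TPM, and telomerase RNA (Terc), which has an H/ACA end, had 1.75, 3.16 and 0.550 TPM. The minor spliceosome RNA Rnu11 had 6.08, 8.71 and 20.8 TPM, and Rnu12 had 4.26, 3.24 and 10.7 TPM. Both were highest in replicate 3, as were 41.3% of all genes averaging at least 1 TPM. Mir6236 had 50523, 49451 and 52481 TPM, and which RNA its reads come from was not tested. Of the nuclear long noncoding RNAs, Malat1 had 21.0, 47.5 and 54.1 TPM and Neat1 had 17.8, 20.8 and 15.8 TPM.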

How the data were processed

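Per the labels, the deposited files hold TPM values, 1 table per library. The submitters' processing notes name mm10, Cell Ranger 6.0.1 and HTSeq. How TPM were computed, the annotation, the library type and the use of strand are not given in the sources used here. Genes were matched to RefSeq (GRCm38.p6) by Entrez ID (127 of 127) and to GENCODE M21 by symbol and position (124), with 110 transcript sequences. A host is the gene of the table that contains the small RNA on the same strand. The TPM of 1 read was tracked along annotated length in each library over noncoding genes of 42 to 140 bases, by dynamic programming. The method was also run on simulated whole reads placed on its own fitted curve. Such a run cannot show that a step is 1 read in the real data. Log values are log2(TPM + 1), and variable genes were called in 20 bins of mean level. Python 3.11.15, numpy 2.4.6 and pandas 2.3.3 were used.

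The genes, lists and thresholds were chosen with earlier results of these data known. Named genes are all Scarna genes, the 8 highest of each other class, the 5 of largest SD at mean TPM 10 or more, their hosts, and the listed genes; exceptions are stated, and some named hosts are not reported here.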

Additional observations from a re-analysis of the deposited data

How the results depend on the processing

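At other settings, 54 values kept their size within a set tolerance and 18 did not. For counts the tolerance was wide. By mean TPM, the H/ACA count of 21 was 30 and the C/D count of 30 was 40. The 38 variable genes were 53 at percentile 90 and 29 at mean TPM 5. The 35 genes highest in replicate 1 were 45 after median-of-ratios scaling and 29 at mean TPM 5. The count of detected C/D genes was 17 at TPM 5 and 11 at 5 or more reads, and the H/ACA count 13 at 5 or more reads, the reads criterion being chosen after seeing the data. The scaRNA count of 2 was 1 at TPM 5, 6 by mean TPM, 0 by reads, and ranged from 2 to 4 without 1 replicate. The shares of TPM as reported were 0.107% (H/ACA), 0.0494% (C/D), 0.00251% (scaRNA) and 0.0579% (Snhg). Without ribosomal protein genes and Mir6236, they were 0.143% (H/ACA), 0.0657% (C/D) and 0.0774% (Snhg). After multiplying by length they were 0.00645% (H/ACA), 0.00177% (C/D), 0.000125% (scaRNA) and 0.0424% (Snhg). Multiplying by length thus put the Snhg genes above the H/ACA snoRNA genes. The difference from the host was -6.66 with a pseudocount of 0.1, -4.40 with both genes at mean TPM 1 and -4.98 as a mean over pairs. At mean TPM 5, 15 genes were highest in replicate 3. No paired analysis was possible because the libraries form 1 group. Read numbers are estimates, most of them under 10 in a library, and groups of 3 are too small to single out a library.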
